A study of Homo sapiens with 6 samples.

Results

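The cytosolic ribosomal proteins are the protein subunits of the ribosomes that translate mRNAs in the cytoplasm. They were taken here as the Ensembl genes whose symbol is RPL or RPS followed by a number, with RPSA, the stalk proteins RPLP0 to RPLP2 and the paralogue copies whose symbols end in L or L1. The kinases named RPS6K were left out. This rule found 85 of the 19684 Ensembl genes in the libraries, 32 of the small (40S) subunit and 53 of the large (60S) subunit. A filter on low counts kept 83 of them, and RPL3L and RPL10L, with at most 2 counts in any library, were not tested.

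The study silenced NEAT1_2, the long isoform of the nuclear RNA NEAT1, in papillary thyroid carcinoma (PTC) cells. K1 cells, an established PTC line, received an siRNA against NEAT1_2 (si-NEAT1_2, 3 libraries) or a negative control siRNA (NC, 3 libraries), and mRNA was sequenced after enrichment with oligo(dT) beads and removal of rRNA. A further table gives 1 value per group. NEAT1 was not analysed here, so each library was taken as labelled. It is not stated whether the libraries of a group came from separate cultures, so p-values measure the spread between these libraries, which may be technical.

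A ribosome holds 1 copy of nearly every ribosomal protein, and cells make these proteins in matched amounts. Their mRNAs are short and among the most abundant of growing cells. Most begin with a cytosine and a run of pyrimidines, the 5′ terminal oligopyrimidine (TOP) motif, through which mTOR and LARP1 control their translation and stability. Many ribosomal protein genes also have processed pseudogenes with near-identical sequence, so reads of a gene and its copies can be divided wrongly between them.

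The total of expected counts ranged from 22798631 to 27066025 per library. PAX8, a thyroid transcription factor, had 113 to 169 FPKM (fragments scaled by transcript length and library size) and the keratin KRT8 had 1149 to 1586 FPKM. Of 5 epithelial markers 3 reached 1 FPKM in every library, while KRT19 stayed at 0.18 to 0.70 FPKM and CDH1 at 0.080 to 0.38 FPKM. Of the thyroid markers NKX2-1, TSHR and SLC5A5 did not exceed 0.080 FPKM, and 3 of the 7 thyroid markers reached 1 FPKM in every library. The summed FPKM of the 7 thyroid markers ranged from 140 to 146 in NC and from 122 to 180 in si-NEAT1_2. It ranged from 0.19 to 0.33 for 4 leukocyte markers and from 0.070 to 0.18 for 3 endothelial markers over all libraries. Of 4 fibroblast markers LUM alone reached 1 FPKM in every library, and their sum was 24.5 to 28.4 FPKM in NC and 18.6 to 21.8 FPKM in si-NEAT1_2. Their part in the results was not tested. Less RNA per cell and fewer cells of a kind cannot be told apart in bulk RNA. A pair of libraries stood apart for the ribosomal proteins: si-NEAT1_2 replicate 2 had the highest values and NC replicate 2 the lowest, so results are given with and without them. Over all genes, both also held more of the highest and of the lowest values than each of the other libraries.

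The start sites of the ribosomal protein genes differed in sequence, among the abundant genes as well as among their copies. RefSeq start sites (GRCh38.p14) were found for 68 of the 85 genes. Where a gene had several annotated starts, the start with the longest run was taken. A run of a C and at least 4 further C or T letters at that start, read on the gene's strand, was found in 47 of these 68 genes (69.1%). It was found in 5.14% of 27305 gene symbols with a start site, and in 4.07% of all 35116 starts. The 17 genes without an entry include RPL5, RPL7, RPL37, RPL39L, RPL3L and RPS2. The windows below show 10 bases before the start and 20 from it, for the genes the results return to and for pairs of a base gene and its copy, with the C and pyrimidine run in capitals. RPL28, with the highest fold change, is at chr19:55385922-55385951 (+), and RPL11 of the 5S particle at chr1:23691796-23691825 (+). RPS6, a target of the S6 kinases, is at chr9:19380217-19380246 (-), and RPLP0 of the stalk at chr12:120201092-120201121 (-). The pair of RPS27 and RPS27L is at chr1:153990752-153990781 (+) and chr15:63157458-63157487 (-). RPL26 and RPL26L1 are at chr17:8383174-8383203 (-) and chr5:172958719-172958748 (+). RPL22 and RPL22L1 are at chr1:6199576-6199605 (-) and chr3:170870176-170870205 (-). RPL7L1, with the lowest fold change, is at chr6:42879606-42879635 (+).
RPL28: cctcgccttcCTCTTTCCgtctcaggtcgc
RPL11: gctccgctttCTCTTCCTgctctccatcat
RPS6: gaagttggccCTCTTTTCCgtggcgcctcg
RPLP0: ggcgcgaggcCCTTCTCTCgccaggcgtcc
RPS27: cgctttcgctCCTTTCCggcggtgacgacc
RPS27L: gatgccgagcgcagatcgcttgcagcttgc
RPL26: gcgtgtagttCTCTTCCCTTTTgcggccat
RPL26L1: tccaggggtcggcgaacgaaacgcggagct
RPL22: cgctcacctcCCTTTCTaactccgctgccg
RPL22L1: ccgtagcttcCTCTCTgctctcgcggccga
RPL7L1: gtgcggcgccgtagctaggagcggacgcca
RPS27L, RPL26L1 and RPL7L1 had no such run at this start, whereas RPL22L1 had one of 6 letters. Abundant genes without such a run, not shown above, include RPL15, RPL19, RPS15 and RPL32. A match is a description of these letters and not a measured site.

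The ribosomal proteins were among the most abundant mRNAs of K1 cells. By mean FPKM over the 6 libraries, 55 of the 85 genes were among the 100 highest genes and 77 among the 500 highest. RPS2, at the mRNA entry of the small subunit, had the highest level, with 5251, 4253 and 5373 FPKM in the NC libraries and 5822, 8643 and 6512 FPKM in the si-NEAT1_2 libraries. RPL10, which joins the large subunit late in its assembly, and RPLP0 followed, with means of 3861 and 3431 FPKM. The 8 genes with a mean under 200 FPKM were the 8 paralogue copies, from 131 FPKM for RPS27L to 0.0067 FPKM for RPL3L, a gene known from skeletal muscle and heart. The median transcript of the 83 genes tested was 687 bases long, against 1852 bases over 12581 genes, and held 50.2% G and C, against 49.8%.

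As a share of all expected counts, the 85 genes took 8.0%, 6.85% and 8.04% of the NC libraries and 8.76%, 11.9% and 8.82% of the si-NEAT1_2 libraries. The means were 7.63% ± 0.68 and 9.84% ± 1.82 (SD, n = 3 each), a difference of 2.21 percentage points. Every si-NEAT1_2 library was above every NC library, and replicate 2 of si-NEAT1_2 was far above the other 5. Without this library the difference was 1.16 percentage points. The balance of the subunits differed by less than the spread between libraries, with means of 1.56 ± 0.027 in NC and 1.54 ± 0.036 in si-NEAT1_2 (SD, n = 3 each). The summed counts of the 60S genes were 1.54, 1.59 and 1.55 times those of the 40S genes in the NC libraries and 1.55, 1.5 and 1.56 times in the si-NEAT1_2 libraries. The shares of summed FPKM were 18.5%, 16.6% and 18.5% for NC and 19.7%, 24.1% and 19.7% for si-NEAT1_2.

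**Figure D1:**
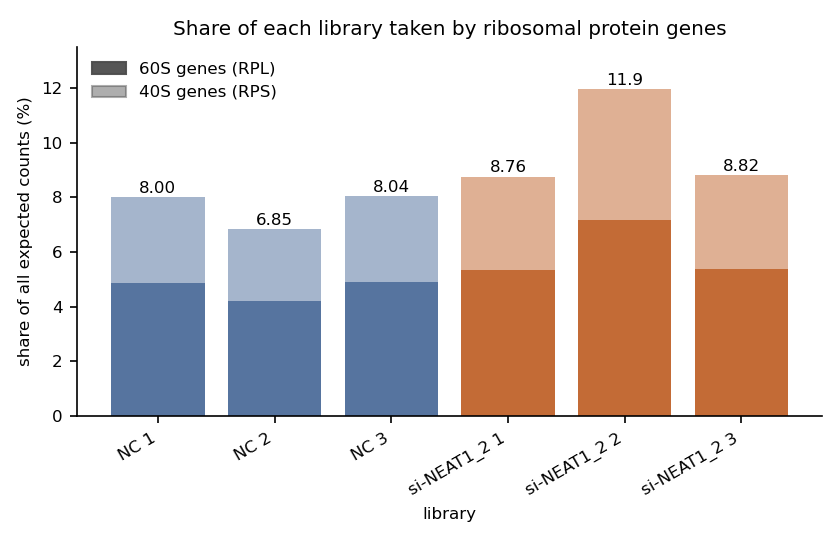
Bars give the share of all expected counts (%) in each of the 6 libraries that the 85 ribosomal protein genes took, with the 60S genes dark and the 40S genes light and the sum printed above. The NC libraries reached 6.85% to 8.04% and the si-NEAT1_2 libraries 8.76% to 11.9%.

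Gene by gene, the values followed the same order of libraries. After TMM scaling, the median deviation of the 83 genes from their own mean over the libraries was -0.11, -0.39 and -0.12 on the log2 scale in the NC libraries and 0.0096, 0.60 and 0.011 in the si-NEAT1_2 libraries. si-NEAT1_2 replicate 2 was the highest library for 83 of the 83 genes, against 32.0% of all genes tested. It was the lowest for 0 of the 83, against 33.1% of all genes. NC replicate 2 was the lowest library for 81 of the 83 genes, against 29.6% of all genes, and the highest for 0, against 31.1%. The other libraries differed less: the median difference in log2 CPM (counts scaled by library size) was 0.14 for si-NEAT1_2 replicate 1 minus NC replicate 1, with 77 of 83 genes higher, and 0.13 minus NC replicate 3, with 80 of 83 higher. For si-NEAT1_2 replicate 3 these differences were 0.10 with 65 of 83 and 0.11 with 68 of 83. Against si-NEAT1_2 replicate 2 the medians were 0.70, 0.99 and 0.72 for NC replicates 1, 2 and 3, with 83 of 83 genes higher each time.

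**Figure D2:**
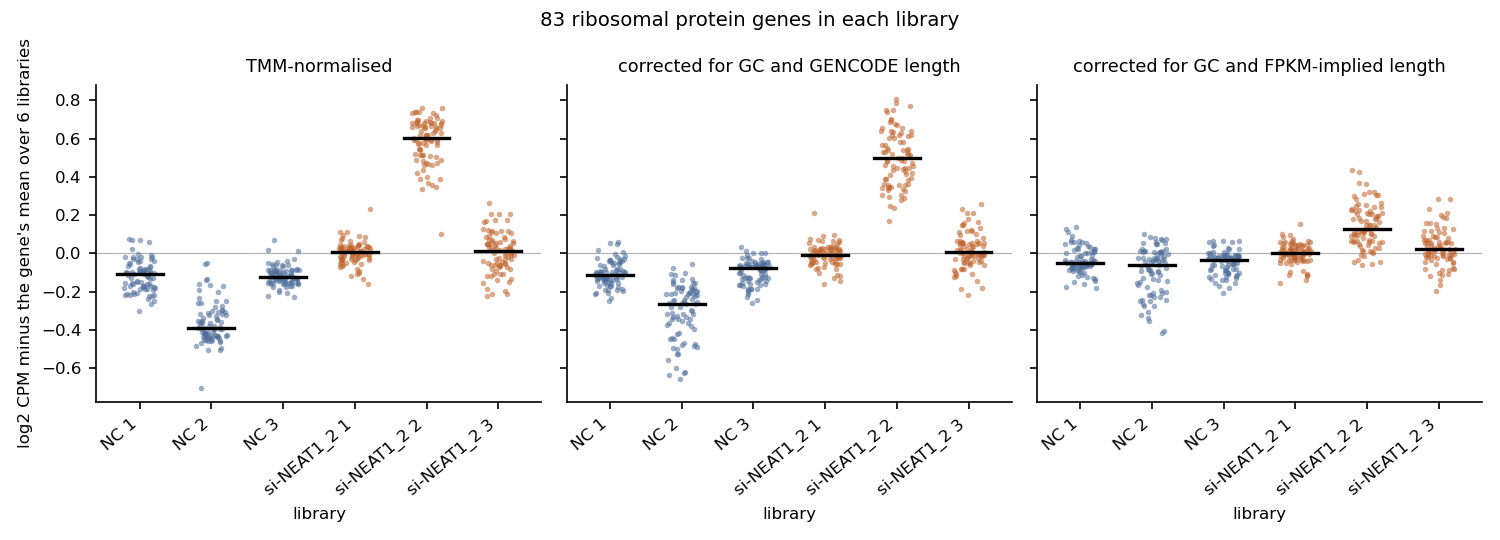
Each point is 1 of the 83 ribosomal protein genes in 1 library, as log2 CPM minus the gene's mean over the 6 libraries, with black lines at the medians, for TMM-normalised values and for values corrected for GC content and length in 2 ways. The median of si-NEAT1_2 replicate 2 is 0.60 before correction, 0.50 with GENCODE lengths and 0.13 with the lengths implied by FPKM.

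Compared with the NC libraries, the log2 fold change of the 83 genes in si-NEAT1_2 had its median at 0.42, a 1.34-fold higher level, against 0.0090 over the 13109 genes tested. The values ran from -0.018 to 0.62, and 82 of the 83 were above 0, as were 50.9% of all genes. The combined threshold was at least a 2-fold difference with a Benjamini-Hochberg adjusted p under 0.05. With edgeR's quasi-likelihood test 0 of the 83 genes passed it, against 0.0% of all genes in each direction. With DESeq2 0 of the 83 passed, against 64 of the 11184 genes with an adjusted p, in both directions together. With limma 0 of the 83 passed, against 0 of 13109 genes on log2 of FPKM plus 1 and 1 on FPKM plus 0.1. The lowest adjusted p among the ribosomal proteins was 0.170 in edgeR. At an unadjusted p under 0.05, 52 of the 83 were higher in si-NEAT1_2, against 11.2% of all genes, and 0 were lower, against 12.9%. For 62 of the 83 genes every si-NEAT1_2 library was above every NC library, against 15.5% of all genes, and for 0 every one was below, against 14.0%.

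These counts rested unequally on single libraries. When si-NEAT1_2 replicate 2 was left out, the median was 0.20, 79 of the 83 genes were above 0, 22 had an unadjusted p under 0.05 and were higher (6.51% of all genes) and 0 were lower (9.38%). Without NC replicate 2, the median was 0.34 and 5 genes were higher with such a p (4.0% of all genes) and 0 lower (4.08%), and without NC replicate 1 there were 27 (6.78% of all genes). Without si-NEAT1_2 replicate 1, 5 of the 83 genes were higher with an adjusted p under 0.05 in edgeR at less than a 2-fold change, against 1.6% of all genes. Among these were RPL28, RPS15 and RPL12, named after their values were seen, with log2 fold changes of 0.80, 0.76 and 0.64. With DESeq2 on all libraries the adjusted p was under 0.05 for 3 higher genes, RPL12 among them, against 1.49% of all genes. The labels carry a library code, L2 for NC replicates 2 and 3 and si-NEAT1_2 replicate 2, and L3 for NC replicate 1 and si-NEAT1_2 replicate 3. Within L2, which held both libraries that stood apart, the median difference was 0.86, with 83 of 83 genes higher in si-NEAT1_2 (50.2% of all genes). Within L3 it was 0.10, with 65 of 83 higher (49.8% of all genes). The code L4 held 1 si-NEAT1_2 library and no NC library, so it gave no value.

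The fold changes of the ribosomal proteins followed the GC content of their transcripts. Across the 83 genes, which are not independent replicates and share the same libraries, Spearman's rho of the log2 fold change was 0.56 with GC content and -0.29 with transcript length, and across 12581 genes tested it was 0.62 and -0.33. Among the 42 ribosomal protein genes with at least 50.2% GC the median was 0.48 and 37 had an unadjusted p under 0.05, while among the other 41 it was 0.37 with 15. On chromosome 19, chosen after its values were seen, 12 of 12 ribosomal protein genes had an unadjusted p under 0.05 and a median log2 fold change of 0.57, at a median GC of 58.1%. The 890 genes tested on this GC-rich chromosome had a median of 0.23, and 26.3% of them were higher with such a p.

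A correction was therefore applied that removed, in each library, smooth trends of log2 CPM over GC content and transcript length. With lengths from the GENCODE annotation, the median of the 83 genes was 0.33, against 0.011 over all genes. All 83 values were above 0, as were 51.7% of all genes, from 0.095 for RPL3, near the peptidyl transferase centre, to 0.70 for RPL37. An unadjusted p under 0.05 was found for 48 genes, higher in si-NEAT1_2 in each case, against 8.39% of all genes, and 0 genes were lower, against 7.64%. With both criteria, 0 were called in either direction, against 0.0% of all genes higher and 0.0229% lower, and the lowest adjusted p of edgeR was 0.244. The groups did not overlap for 55 genes that were higher, against 11.7% of all genes, and for 0 that were lower, against 11.1%. Without si-NEAT1_2 replicate 2, the corrected median was 0.15 with 28 genes at this p (6.05% of all genes). Leaving out NC replicate 1, 2 or 3 in turn gave 29, 13 and 29 genes at this p, against 7.29%, 3.71% and 5.28% of all genes. Within the library code L2 the corrected median difference was 0.69, with 83 of 83 genes higher (53.9% of all genes). Within L3 it was 0.12, with 69 of 83 higher (48.5% of all genes). On chromosome 19 the corrected median of the 12 genes was 0.28, and that of the 890 genes was -0.013. The order by GC content turned over. Spearman's rho with GC across the 83 genes was -0.62 after correction, with a median of 0.28 for the 42 genes of higher GC and 0.43 for the other 41. Across all genes rho with GC was -0.018 after correction.

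The size of the corrected difference depended on the lengths used. The deposited FPKM values imply a length for every gene, which had a median of 723 bases for the 83 genes and 2664 bases over all genes, against 687 and 1852 bases in GENCODE. With these implied lengths, a choice made after seeing the data, the median log2 fold change of the ribosomal proteins was 0.10, a 1.07-fold higher level, against 0.0063 over all genes. Of the 83 genes 72 were above 0, against 51.1% of all genes. An unadjusted p under 0.05 was found for 25 genes that were higher, against 8.09% of all genes, and for 0 that were lower, against 7.67%. With both criteria, 0 were called, against 0.00763% of all genes higher and 0.0229% lower, and the lowest adjusted p of edgeR was 0.110, for RPL37. The groups did not overlap in the same direction for 26 genes, against 10.6% of all genes, and for 1 gene in the other, against 10.2%. The median deviation was -0.048, -0.059 and -0.033 in the NC libraries and 0.0020, 0.13 and 0.020 in the si-NEAT1_2 libraries. With the trends estimated from genes other than the ribosomal proteins, the median was 0.12 and 29 genes were higher with such a p (8.15% of all genes). Without si-NEAT1_2 replicate 2, it was 0.055 with 15 genes (5.49% of all genes). Without NC replicate 2, 13 genes had such a p (4.31% of all genes). Within L2 the median difference was then 0.17, with 74 of 83 genes higher (53.8% of all genes). Within L3 it was 0.065, with 57 of 83 higher (48.4% of all genes). The median was above 0 in all 3 fits, at 0.42 without correction, 0.33 with GENCODE lengths and 0.10 with implied lengths.

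**Figure D3:**
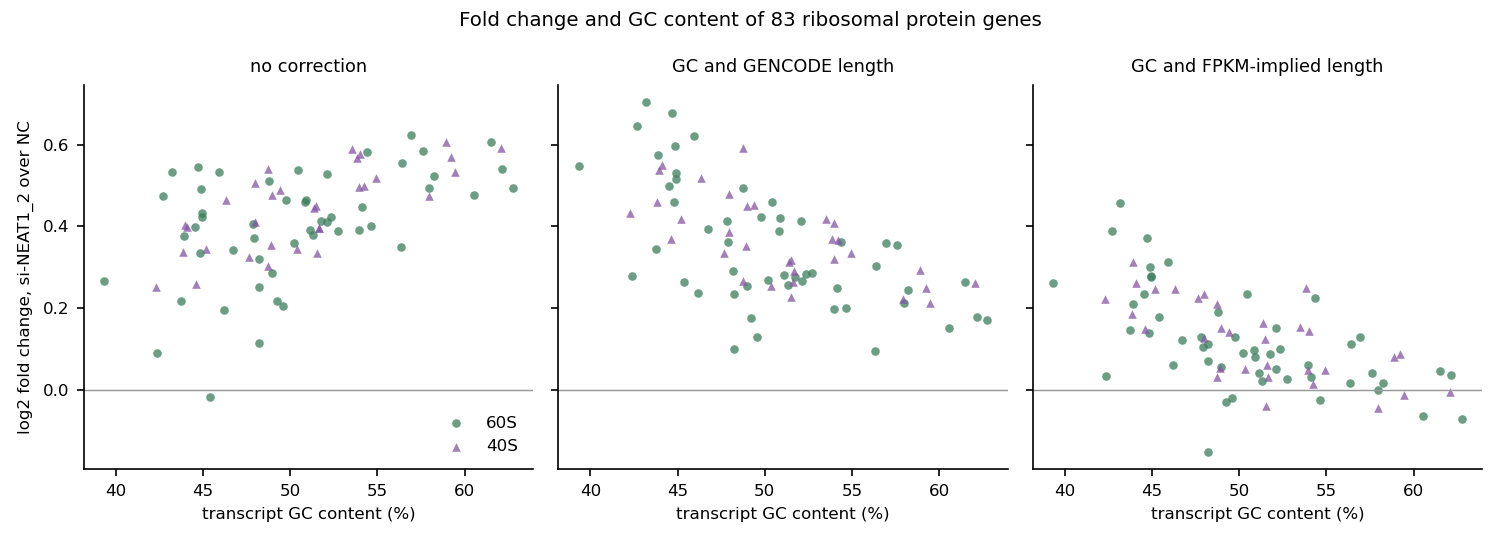
The log2 fold change of si-NEAT1_2 over NC is plotted against transcript GC content (%) for the 83 genes, circles for 60S and triangles for 40S, without correction and with both corrections. The points climb with GC before correction (rho 0.56) and descend with it afterwards (rho -0.62 with GENCODE lengths and -0.65 with implied lengths).

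The 40S and 60S genes had like values. Of the 32 genes of the small subunit 32 were above 0 and 21 had an unadjusted p under 0.05, with a median log2 fold change of 0.46. Of the 51 genes of the large subunit 50 were above 0 and 31 had such a p, with a median of 0.41. With GC and GENCODE length removed the medians were 0.36 and 0.29, and with implied lengths 0.13 and 0.098. The genes with the C and pyrimidine run at their start had a median of 0.43 (47 genes, 32 with such a p), and those with a start site but no run had 0.38 (20 genes, 10 with such a p). With the GENCODE correction these medians were 0.35 and 0.28, and with implied lengths 0.11 and 0.097. The set without a run includes the paralogue copies RPS27L, RPL26L1 and RPL7L1, with uncorrected values of 0.25, 0.11 and -0.018. A run that begins away from the annotated start was not counted. The difference between these sets was not tested.

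In the small subunit, RPS2 had the highest level. Its CPM was 5101, 4048 and 5186 in NC and 5620, 9211 and 6441 in si-NEAT1_2, without overlap, for a log2 fold change of 0.57 (SE 0.20, adjusted p = 0.170 in edgeR), or 0.25 with the GENCODE correction and 0.087 with implied lengths. RPSA, also known as the laminin receptor, had 2835, 2285 and 2848 CPM against 3054, 4614 and 3172 CPM. Its log2 fold change was 0.44, with unadjusted p values in edgeR of 0.0349 without correction, 0.0402 with the GENCODE correction and 0.0423 with implied lengths. RPS6, which S6 kinases phosphorylate downstream of mTOR, showed 1797, 1623 and 1746 CPM in NC against 1903, 2698 and 1952 CPM in si-NEAT1_2. Here the groups were also apart, and the log2 fold change was 0.34 before, 0.42 after the GENCODE correction and 0.25 with implied lengths (unadjusted p = 0.0567, 0.0126 and 0.00562 in edgeR). RPS4X had 1395, 1204 and 1389 CPM against 1432, 2062 and 1498 CPM, a log2 fold change of 0.32 that was 0.33 with the GENCODE correction and 0.22 with implied lengths. RPS27A, made as a fusion with ubiquitin, was the exception among these. Its groups overlapped, at 666, 515 and 583 CPM in NC and 618, 949 and 545 CPM in si-NEAT1_2. The log2 fold change of RPS27A was 0.26 ± 0.20 with all libraries and -0.025 without si-NEAT1_2 replicate 2.

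In the large subunit, RPL28, a protein of the outer face of the particle, had the highest fold change. It had 545, 489 and 614 CPM in the NC libraries and 618, 1118 and 804 CPM in the si-NEAT1_2 libraries. Its log2 fold change was 0.62 ± 0.20 (SE, adjusted p = 0.170 in edgeR). With the GENCODE correction RPL28 was at 0.36, and with implied lengths at 0.13. RPL28 lay near its boundary, with NC replicate 3 at 614 and si-NEAT1_2 replicate 1 at 618 CPM.

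The stalk recruits the translation factors that split GTP. RPLP0, its base, had 3817, 3040 and 3701 CPM in NC and 3970, 5713 and 4171 CPM in si-NEAT1_2, without overlap, for a log2 fold change of 0.39 (unadjusted p = 0.0481 in edgeR). RPLP1 had 767, 595 and 780 CPM against 822, 1241 and 740 CPM, so that its groups overlapped, with a log2 fold change of 0.39. RPLP2 had 575, 497 and 615 CPM against 647, 1033 and 665 CPM, and a log2 fold change of 0.48. The correction with GENCODE lengths left 0.20, 0.29 and 0.15 for RPLP0, RPLP1 and RPLP2, and implied lengths left 0.061, 0.026 and -0.064, so the sign for RPLP2 turned.

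RPL5 and RPL11 bind 5S rRNA and, outside the ribosome, the p53 regulator MDM2. They were at the low end, with RPL5 at 957, 856 and 893 CPM in NC and 966, 1214 and 917 CPM in si-NEAT1_2. The groups of RPL5 overlapped, and its log2 fold change was 0.20 ± 0.14 (SE, unadjusted p = 0.201 in edgeR). RPL11 had 871, 782 and 880 CPM against 901, 1335 and 928 CPM, without overlap, and a log2 fold change of 0.32 ± 0.17. RPL3 and RPL10, at the catalytic core of the subunit, had log2 fold changes of 0.35 and 0.40. Both groups were apart before correction (2292, 1843 and 2161 against 2416, 3180 and 2427 CPM for RPL3, and 2502, 2009 and 2444 against 2666, 3745 and 2773 CPM for RPL10). With implied lengths the values for RPL3 and RPL10 were 0.016 and -0.026.

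Before correction, most paralogue copies had lower fold changes than the genes they resemble, and the order changed with the corrections in some pairs. Of 6 copies tested, 5 were above 0, with a median log2 fold change of 0.18, against 0.45 for the 77 other genes. An unadjusted p under 0.05 in edgeR was found for 0 of the 6 copies and 52 of the 77 others. Over all genes, 11.2% were higher with such a p, so 0 of 6 says little. RPL7L1 and RPL36AL were the lowest of all 83 genes, followed by RPL26L1. RPL7L1 had 198, 181 and 190 CPM in NC and 175, 202 and 184 CPM in si-NEAT1_2, a log2 fold change of -0.018 ± 0.12. Its base gene RPL7 had 0.22 (1435, 1238 and 1292 against 1396, 1947 and 1269 CPM). For RPL36AL the CPM was 81.1, 85.4 and 92.7 against 82.9, 113 and 79.7, and for RPL26L1 it was 72.5, 61.2 and 67.0 against 62.8, 90.4 and 64.2. The groups of all 3 copies overlapped.

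As a share of the summed FPKM of copy and base gene, RPL26L1 made up 6.63%, 5.95% and 5.85% of its pair in the NC libraries and 4.69%, 4.72% and 4.62% in the si-NEAT1_2 libraries, without overlap. RPL26 itself had 859, 743 and 830 CPM against 962, 1539 and 1049 CPM, a log2 fold change of 0.54, so copy minus base was -0.43. For RPL36AL and RPL36A the shares were 9.37%, 11.0% and 10.5% against 8.96%, 7.54% and 7.75%, also without overlap, and copy minus base was -0.40. The shares of RPS27L, known as a target of p53, were 8.25%, 9.56% and 9.18% of its pair with RPS27 in NC and 8.40%, 7.26% and 7.74% in si-NEAT1_2, with overlap. RPL22L1 held 15.4%, 14.1% and 15.7% against 15.1%, 15.0% and 13.9% of its pair, and RPL39L held 1.31%, 1.39% and 1.18% against 1.11%, 1.35% and 1.39%. For these pairs the uncorrected log2 fold changes of copy and base gene differed by 0.014 and 0.0011. With the GENCODE correction the pairs were no longer level. RPL22L1 was then above RPL22, while RPL39L (0.26) was below RPL39 (0.57). In the group table the shares went from 4.32% in NC to 5.08% in si-NEAT1_2 for RPL26L1 and from 10.7% to 15.7% for RPL36AL. They went from 5.77% to 7.43% for RPS27L and from 1.06% to 1.26% for RPL7L1. This was opposite to the libraries for each, where copy minus base was -0.29 for RPS27L and -0.24 for RPL7L1, with overlapping shares for both. The table's shares fell for RPL22L1 (33.7% to 32.3%) and RPL39L (1.57% to 0.82%). With the GENCODE correction, the median of the 6 copies was 0.27 against 0.34 for the 77 other genes, and with implied lengths the medians were 0.11 and 0.10. At an unadjusted p under 0.05 in edgeR, 2 of the 6 copies and 46 of the 77 others were higher with the GENCODE correction (8.39% of all genes). With implied lengths these counts were 2 and 23 (8.09% of all genes). RPL3L had 2 counts in NC replicate 2 and RPL10L, a retrogene of testis, 1 count in NC replicate 3, and both were at 0 elsewhere, where a count of 0 allows up to 3 counts per library.

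**Figure D4:**
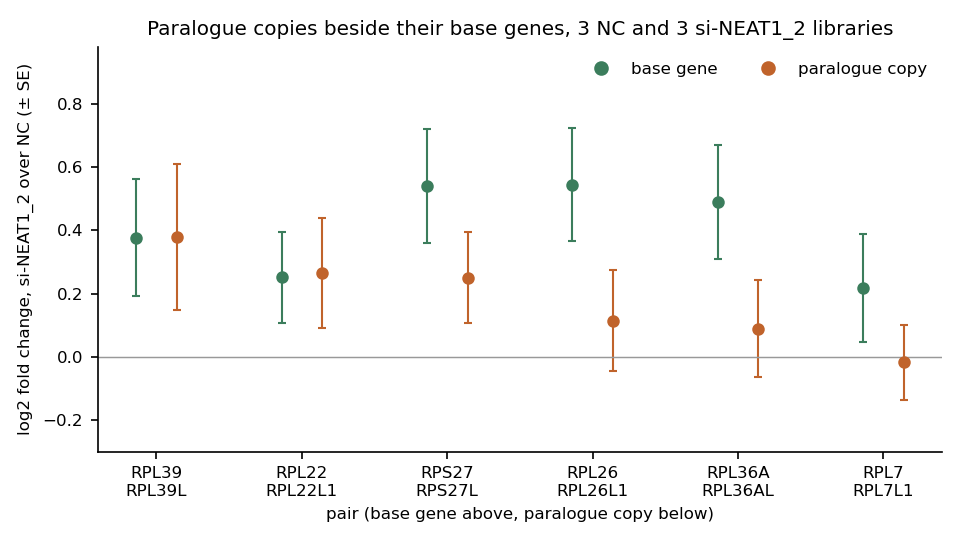
Points give the uncorrected log2 fold change of si-NEAT1_2 over NC with its SE for 6 pairs of a base gene (green) and its paralogue copy (orange). The copies RPL26L1 (0.11), RPL36AL (0.089) and RPL7L1 (-0.018) lie lowest, and RPL39L and RPL22L1 lie level with their base genes.

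Other genes of translation were read beside the ribosomal proteins. FAU, a ribosomal protein with another symbol that is made as a fusion with a ubiquitin-like protein, had a log2 fold change of 0.48, and RACK1, a scaffold on the small subunit, had 0.37. Corrected with GENCODE lengths, these were 0.23 and 0.17 (unadjusted p = 0.121 and 0.107 in edgeR), and with implied lengths -0.0038 and -0.0032. Their CPM was 289, 265 and 321 against 348, 538 and 336 for FAU and 1369, 1171 and 1392 against 1462, 2002 and 1622 for RACK1, with no overlap of the groups for either before correction.

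Of 20 translation factors and other TOP genes, 7 had an unadjusted p under 0.05 and were higher and 0 lower, with a median log2 fold change of 0.18, where 11.2% of all genes were higher and 12.9% lower. After correction with GENCODE lengths 6 were higher and 1 lower. The elongation factor EEF1G had 0.51, or 0.30 with that correction and 0.21 with implied lengths. The initiation factors EIF4A2 (-0.25) and EIF2S3 (-0.11) were lowest. With the GENCODE correction EIF4A2 had -0.26 and EIF2S3 0.13, and with implied lengths -0.30 and 0.16, so that the sign of EIF2S3 turned. Of 36 genes of ribosome biogenesis, 7 were higher and 6 lower at this p, with a median of 0.069, and with the GENCODE correction 4 and 4 (8.39% and 7.64% of all genes). NHP2 and FBL, of the small nucleolar particles that modify rRNA, had 0.51 and 0.49, while RIOK2, a kinase of 40S maturation, and the nucleolar protein NOLC1 had -0.51 and -0.46. Corrected with GENCODE lengths, NHP2 had 0.27, FBL 0.20, RIOK2 -0.22 and NOLC1 -0.37. With implied lengths NHP2 had 0.011, FBL 0.0026, RIOK2 -0.11 and NOLC1 -0.40. Of 12 genes of growth control, 2 were higher and 0 lower, with a median of 0.13, and with the GENCODE correction 0 were higher and 1 lower. MAF1, a repressor of RNA polymerase III, had 0.45, RPS6KB2 had 0.44, RPS6KB1 had -0.50 and LARP1, the TOP-binding protein, had -0.28. Corrected with GENCODE lengths, these were 0.11, 0.13, -0.25 and -0.43, and with implied lengths 0.066, 0.052, -0.20 and -0.20. With implied lengths the medians of these 3 lists were 0.11, 0.0086 and 0.059.

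The mitochondrial ribosomal proteins, which belong to another ribosome, also had mostly positive fold changes, in 71 of 78 genes, against 50.9% of all genes. Of 78 genes 27 had an unadjusted p under 0.05 in edgeR and were higher (11.2% of all genes), and 0 were lower (12.9%). The median was 0.33, against 0.42 for the cytosolic genes. MRPS24 and MRPL34 had 0.64 and 0.62, and MRPL50 and MRPL19 had -0.20 and -0.16. After correction with GENCODE lengths MRPS24 had 0.34, MRPL34 0.25, MRPL50 0.29 and MRPL19 0.027, so the sign of the lowest genes turned. Implied lengths gave 0.11, 0.059, 0.25 and -0.068 for these genes, so MRPL19 was then below 0. With the GENCODE correction the median of the 78 genes was 0.22, with 19 higher at this p (8.39% of all genes) and 0 lower (7.64%). With implied lengths it was 0.082, with 13 higher (8.09%) and 1 lower (7.67%), against 0.10 and 25 higher for the cytosolic genes. Of the 78 genes 54 were then above 0, against 51.1% of all genes. The difference between both kinds of ribosome was not tested.

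The group table gave a smaller median ratio for the 83 genes and also a lower one over all genes, on FPKM that were not scaled by TMM. Its values are 1 per group with no spread, so no test could be made. The 85 genes took 10.7% of its NC counts and 11.2% of its si-NEAT1_2 counts, and 23.1% and 22.8% of its summed FPKM. For the 83 genes the median log2 ratio of FPKM was 0.085, a 1.06-fold higher level in si-NEAT1_2, against -0.24 over 12420 genes. On the FPKM of the libraries (limma, pseudocount 1) the median was 0.35, against -0.040 over all genes. The ratio was above 1 for 52 genes and below 1 for 31, against 34.6% of all genes above 1. A ratio of at least 1.5 was found for 2 genes, RPS27L (165 and 258 FPKM) and RPL36AL (200 and 302 FPKM), against 10.2% of all genes. A ratio of at most 1/1.5 was found for RPL39L alone (30.1 and 18.5 FPKM), against 31.0% of all genes. A 2-fold ratio was reached by 0 genes, against 4.15% of all genes above it and 16.0% at or below its inverse.

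The sign of single genes could differ between the libraries and the group table, whose median log2 ratio over 12420 genes was itself -0.24. RPL28 had 1567 and 1509 FPKM in the table, a log2 ratio of -0.054, and RPS2 had 12271 and 11178 FPKM, a log2 ratio of -0.13. Both ratios were below 0 but above the table's median. RPL5 and RPL11 had log2 ratios of -0.34 and -0.45, below that median. RPL36AL and RPS27L, at 0.089 and 0.25 in the libraries, had 0.59 and 0.65 in the table. Multiplied by 3, the table's FPKM values were whole hundredths in both groups for 83 of the 83 genes, within 0.01 of a hundredth, the form that a mean of 3 values takes. They were not the means of these libraries, since its NC FPKM lay above all 6 libraries for 31 of the 83 genes and below all 6 for 14, and its si-NEAT1_2 FPKM above for 38 and below for 16. How the table was made, and from which libraries, is not given in the sources used here.

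**Figure D5:**
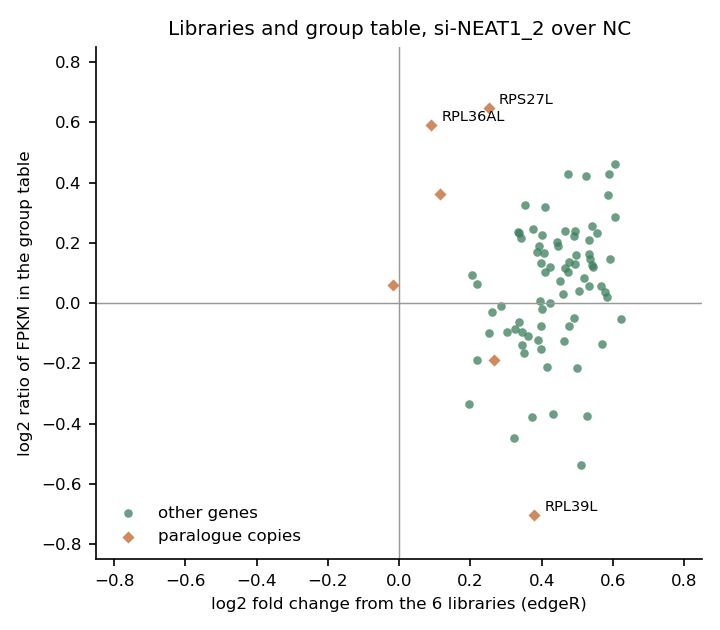
For each of the 83 genes the log2 fold change fitted from the 6 libraries is on the horizontal axis and the log2 ratio of FPKM in the group table on the vertical axis, both si-NEAT1_2 over NC, with paralogue copies as orange diamonds. The points span -0.018 to 0.62 across and -0.70 to 0.65 upward, with 31 below 0 in the table.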

How the data were processed

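Messenger RNA of K1 cells was profiled in 3 NC and 3 si-NEAT1_2 libraries. According to the methods the authors mapped reads with TopHat2 and quantified them with RSEM, while the processing notes of the labels name fastp 0.18.0, Bowtie2 2.2.8, HISAT2 and StringTie 1.3.1 with GRCh38. The deposited expected counts are estimates per gene and were not normalized, and the deposited FPKM values were scaled by the authors for length and depth. The group table holds 1 expected count and 1 FPKM value per group, as deposited. Unannotated loci held 0.336% to 0.447% of counts per library.

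Expected counts were rounded, filtered (filterByExpr), scaled by TMM and compared across 13109 genes by edgeR 4.0.16 (quasi-likelihood test) under R 4.3.3. DESeq2 1.42.0 and limma 3.58.1 (log2 of FPKM plus 1 or 0.1) served as alternatives, with other scalings and filters, the replicate block, the library code as covariate and the omission of each library. The GC and length correction fitted splines with 5 degrees of freedom per library to the median GC content and length of protein-coding transcripts in GENCODE 29, used as offsets, and was tested with the main fit on simulated data. Of the 19684 Ensembl identifiers 19684 were found in this release. Lengths implied by FPKM, and corrections or shares without single libraries, were added after seeing the data. SE is the log2 fold change divided by the root of the F statistic.

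The genes and lists were chosen with earlier results of these data known. Named were the stalk proteins, RPSA, RPL5, RPL11, RPS6, RPS27A, RPS4X, each paralogue copy with its base gene, the highest and lowest genes by mean FPKM, the 3 highest and 3 lowest log2 fold changes, FAU and RACK1, and the 2 highest and 2 lowest of each list. Some genes that this rule names are not reported here. Other genes named were chosen after their values were seen.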

Additional observations from a re-analysis of the deposited data

Results flagged for a closer look

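Of 4 unannotated loci that carry the symbol of a ribosomal protein gene and were left out of every comparison, 2 had more than 3 counts in each library, the limit that a count of 0 allows. The locus with the symbol RPL13A had 226, 177 and 279 expected counts in the NC libraries and 224, 364 and 324 in the si-NEAT1_2 libraries, with 363.89 as the highest value. The locus with the symbol RPL10 had 68, 92 and 62 counts against 55, 47 and 80, so its highest value of 92 was in NC replicate 2. The groups overlapped for both loci.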

How the results depend on the processing

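The median log2 fold change of the 83 genes stayed above 0 under each of 23 alternatives, and 0 genes were lower at an unadjusted p under 0.05 in each of them. It was 0.42, with 52 genes higher at this p, and fell to 0.10 (25 genes) with GC content and lengths implied by FPKM, or 0.12 (29 genes) with trends from other genes, both chosen after seeing the data. Leaving out 1 library gave medians from 0.20 to 0.54 with 5 to 68 genes. The 5 stood against 4.0% of all genes, without NC replicate 2, and the 68 against 8.58%, without si-NEAT1_2 replicate 3. With the GENCODE correction the ranges of median and gene count were 0.15 to 0.43 and 13 to 65 (3.71% to 10.6% of all genes), around 0.33 and 48. With implied lengths they were 0.055 to 0.12 and 13 to 32 (4.31% to 9.69%). limma on log2 FPKM had 23 genes at this unadjusted p with pseudocount 1 (8.17% of all genes) or 26 with 0.1 (8.05%), and 0 past an adjusted p of 0.05. The difference in the share of counts, 2.21 percentage points, ranged from 1.16 to 2.75 without single libraries and was 3.30 as a share of summed FPKM. The replicate block left 11 genes (4.69% of all genes), or 21 with the GENCODE correction (4.52%). The methods speak of pairs of NC and si-NEAT1_2 cells, but neither they nor the labels say which libraries form a pair. The numbers gave no sign of pairing: deviations of same-numbered libraries correlated at -0.24, -0.32 and -0.010, and no library correlated best with its own number. The cause of these changes was not tested.

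Of 621 values for 27 named genes under 23 alternatives, 599 kept their sign and side of the threshold. RPL7L1 (-0.018) turned to 0.26 with the GENCODE correction, 0.26 with its trends from other genes, 0.25 with it and the replicate block, 0.15 with GC alone, 0.18 with length alone, 0.18 with implied lengths under both sets of trends, and 0.028 with the library code. Leaving out 1 library gave -0.085 to 0.020 for RPL7L1, -0.025 to 0.41 for RPS27A, -0.085 to 0.20 for RPL26L1 and -0.097 to 0.18 for RPL36AL, the negative ends of the last 3 coming from the omission of si-NEAT1_2 replicate 2. With length alone RPL36AL was -0.016. With implied lengths, RPLP2 was -0.064, RPL26L1 -0.15 and RPL10 -0.026, and with trends from other genes -0.052, -0.13 and -0.0096. RPL3L and RPL10L had too few counts to be tested.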
